A study of Homo sapiens with 16 samples.

Results

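H3K27me3 regions called only in vehicle are stretches of the genome where a peak of trimethylated lysine 27 of histone H3 was listed in all 3 libraries of vehicle-exposed MCF-10A cells and in no library of octanoic acid (OA)-exposed cells. Peaks of the 6 H3K27me3 lists that shared at least 1 bp were merged on chromosomes 1 to 22, X and Y, and the regions were chosen by the presence or absence of a peak in each list. There were 832 such vehicle-only regions, which is 0.844% of the 98559 merged regions of any library, 2.55% of the 32643 merged regions found in 2 or more libraries, and 14% of the 5926 regions with a peak in all 3 vehicle libraries. The opposite pattern, with a peak in all 3 OA lists and no vehicle list, held for 80 of the 32643 regions. The numbers 832 and 80 were not tested against each other, because the lists differ in length. OA replicate 3 held 9091 peaks and each vehicle list at least 18801.

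MCF-10A is a nontransformed human breast epithelial line, here used unmodified and as the only line. Cultures seeded in triplicate received PBS (vehicle) or 5 mM OA, a medium-chain fatty acid, for 24 hours before CUT&RUN, in which an antibody tethers micrococcal nuclease to chromatin and the released DNA is sequenced. About 900000 cells went into a reaction. For each of H3K27me3 and H3K4me3 there were 3 vehicle and 3 OA libraries, and untreated cells gave 2 H3K4me3 libraries and 2 libraries with nonspecific IgG. The H3K27me3 lists held 9091 to 47648 peaks, the fewest in OA replicate 3 and the most in vehicle replicate 2, so a region had fewest chances of a call in OA replicate 3. Read numbers were not used here, the depth behind each call is unknown, and a region without a listed peak may still carry the mark below the threshold. H3K4me3 peaks covered the start sites of the basal epithelial genes KRT5, KRT17, EGFR, CDH3 and ITGB4 in all 6 vehicle and OA libraries. KRT14 had one in 2 vehicle and 0 OA libraries and TP63 in 2 vehicle and 1 OA library. Of the luminal genes, FOXA1 had one in all 6, ESR1 in 0 vehicle and 1 OA library, and PGR in none. Those of PTPRC, CD3E, COL1A2, PDGFRA, PECAM1 and CDH5, which mark immune, fibroblast and endothelial cells, had none.

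H3K27me3 is written by Polycomb repressive complex 2, usually over broad domains around silent developmental genes and over intergenic chromatin, and is removed by the demethylases KDM6A and KDM6B. H3K4me3 is deposited by SET1 and MLL complexes at the start sites of active or poised genes, most of which lie in CpG islands, stretches of DNA dense in unmethylated CpG. A promoter can carry both marks, a state called bivalent, and in epithelial cells many lineage genes of other tissues are kept in the Polycomb state.

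Reference sequences of 2 kinds of vehicle-only region are printed. The kinds were chosen in unlike ways, the first by H3K4me3 calls and the second by H3K27me3 strength. Their CpG contents are therefore only described. The first kind comprised the only 4 vehicle-only regions where H3K4me3 was called in every OA library but never in vehicle, all within 1 kb of a start site. They are named after the gene with the nearest protein-coding start site, CAMK4, BATF3, GIPR and PPP2R2C. The windows below are 200 bases of the hg38 plus strand inside the region, as near as possible to the summit of the strongest OA H3K4me3 peak while outside annotated UTRs, and CpG dinucleotides are in capitals.
CAMK4, chr5:111224484-111224683: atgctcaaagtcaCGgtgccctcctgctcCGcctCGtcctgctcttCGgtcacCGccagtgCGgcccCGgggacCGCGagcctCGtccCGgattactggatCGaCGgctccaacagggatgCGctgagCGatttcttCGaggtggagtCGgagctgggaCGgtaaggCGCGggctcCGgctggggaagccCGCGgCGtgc
BATF3, chr1:212699510-212699709: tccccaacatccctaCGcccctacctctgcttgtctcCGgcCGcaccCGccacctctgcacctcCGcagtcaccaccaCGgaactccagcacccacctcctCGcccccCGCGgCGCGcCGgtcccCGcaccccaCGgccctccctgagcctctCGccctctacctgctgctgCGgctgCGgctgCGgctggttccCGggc
GIPR, chr19:45668954-45669153: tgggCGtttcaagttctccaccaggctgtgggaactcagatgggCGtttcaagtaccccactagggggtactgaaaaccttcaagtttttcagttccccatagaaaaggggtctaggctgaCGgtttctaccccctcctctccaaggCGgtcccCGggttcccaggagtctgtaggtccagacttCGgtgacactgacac
PPP2R2C, chr4:6563188-6563387: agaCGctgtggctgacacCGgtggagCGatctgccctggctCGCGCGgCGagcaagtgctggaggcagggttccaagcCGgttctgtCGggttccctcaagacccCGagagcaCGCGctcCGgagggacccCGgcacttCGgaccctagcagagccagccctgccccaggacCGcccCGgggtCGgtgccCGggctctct
These windows held 24, 19, 6 and 19 CpG in that order, and their GC content was 68.5%, 73.5%, 55% and 71%. The BATF3 and PPP2R2C windows lay inside the H3K4me3 peak of every OA library. The CAMK4 window lay beyond the peaks of OA replicates 1 and 2, which ended at 111224426 and 111224385, and partly inside that of OA replicate 3. The GIPR window lay inside the peaks of OA replicates 2 and 3 and beyond that of OA replicate 1.

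The second kind comprised the 3 strongest vehicle-only regions among those that could be placed uniquely in the genome, where at least 90% of the 31-base words occur once in hg38. Their windows are the middle 200 bases, in the same notation.
MITF-nearest, chr3:70069243-70069442: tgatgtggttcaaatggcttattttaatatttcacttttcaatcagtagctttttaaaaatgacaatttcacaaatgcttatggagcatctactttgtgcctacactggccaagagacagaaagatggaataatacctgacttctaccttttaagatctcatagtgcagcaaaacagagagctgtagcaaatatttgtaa
LMX1A-nearest, chr1:165127214-165127413: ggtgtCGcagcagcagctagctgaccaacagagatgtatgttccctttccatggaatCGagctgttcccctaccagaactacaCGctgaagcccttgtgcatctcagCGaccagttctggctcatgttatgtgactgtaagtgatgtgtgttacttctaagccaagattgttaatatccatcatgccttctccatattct
TTN intron, chr2:178691646-178691845: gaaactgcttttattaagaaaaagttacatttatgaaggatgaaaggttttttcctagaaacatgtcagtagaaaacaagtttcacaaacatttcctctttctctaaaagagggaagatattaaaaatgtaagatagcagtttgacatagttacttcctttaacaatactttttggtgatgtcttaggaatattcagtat
They held 0, 4 and 0 CpG and were 34%, 47% and 29% GC. Over all 832 regions the median GC content of the middle 500 bp was 44% and the median ratio of observed to expected CpG was 0.167.

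The strength of the vehicle calls is described first, and because these calls chose the regions no test was made of it. Peaks were ranked by −log10 p within their own library, and a region's strength is the lowest of its percentiles in the 3 vehicle libraries. The median strength of vehicle-only regions was the 25.6th percentile, with a range from 0.0168 to 98.1. Among 1325 regions called in all 6 libraries the median was 56.1, and it was 31.1 and 40.3 in the 1739 and 2030 regions called in all 3 vehicle libraries and in 1 or 2 OA libraries. Of the vehicle-only regions, 169 had a strength above the 50th percentile and 9 above the 90th. A q-value of at most 0.01 in all 3 vehicle libraries was reached by 33 regions, one of at most 0.001 by 3, and one of at most 1e-05 by 0, although 10 regions reached 1e-05 in at least 1 vehicle library. Which regions counted as vehicle-only turned on these weak peaks. When the rule was applied to the 9091 strongest peaks of each library, 72 of the 832 were chosen again, and with peaks limited to a q of 0.01 or less, 33 were.

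The share of regions without any OA call fell along the strength scale. Up to the 10th percentile of strength, 23.9% of the 665 regions called in all 3 vehicle libraries had no OA call and 9.47% were called in all 3 OA libraries. Above the 90th percentile the shares were 3.16% and 64.9% of 285 regions. The fall was not strict, since the share without an OA call was 7.34% between the 60th and 70th percentile and 9.21% between the 70th and 80th. OA replicate 3, which had the fewest peaks, was called at 33.5% of the regions of all 3 vehicle libraries, against 65.9% and 65.4% for OA replicates 1 and 2. Of the 1739 regions with exactly 1 OA call, that call was in OA replicate 3 at 138.

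**Figure D1:**
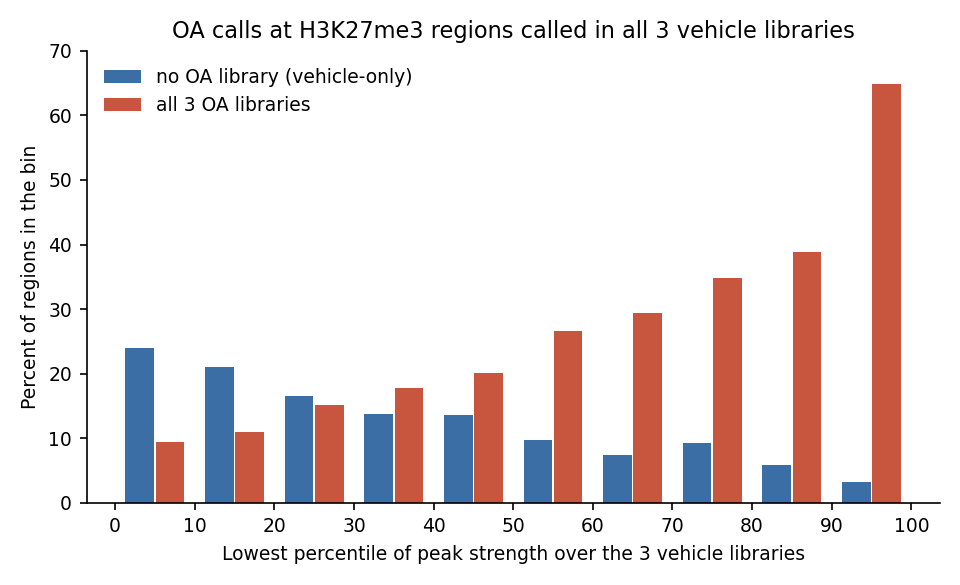
Regions called in all 3 vehicle H3K27me3 libraries, in bins of 10 percentiles of strength on the x axis (the lowest of the 3 vehicle percentiles), with the percent of the regions in the bin called in no OA library (blue) or in all 3 OA libraries (red) on the y axis. Between the first and the last bin the blue bars go from 23.9% to 3.16%, with a rise at 70 to 80, and the red bars from 9.47% to 64.9%.

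Vehicle-only regions differed from shared regions in length more than in enrichment. Their median length was 849.5 bp, with a range of 187 to 3161 bp, whereas regions called in all 6 libraries had a median of 1544 bp. In between, the median was 1056 bp with 1 OA call and 1349 bp with 2, and it was 815.5 bp for the 80 OA-only regions. Merging more lists can only lengthen a region, and a longer stretch is more easily met by an OA peak. The length difference is therefore partly set by the merge and the rule, and was not tested. The stretch actually called had a median of 389, 500 and 407 bp in vehicle replicates 1, 2 and 3, against 760, 1028 and 822 bp in regions of all 6 libraries. The fold over the caller's local background was close in both, with medians of 3.12, 3.04 and 3.18 in vehicle-only regions and 3.18, 3.20 and 3.31 in regions of all 6.

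An OA call was often close by. The distance to the nearest OA H3K27me3 peak had a median of 5349 bp and went from 4 to 223064 bp. An OA peak lay within 1 kb of 135 vehicle-only regions (16.2%), within 5 kb of 395 (47.5%) and within 10 kb of 616 (74.0%). Within 50 kb there was one for 819 of the 832 regions. No such shares are given here for other H3K27me3 regions, so this closeness is not shown to be particular to vehicle-only regions.

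The strongest vehicle-only region lay on chromosome 3 (hg38, 70068973 to 70069714), in a long noncoding RNA gene 132250 bp downstream of the nearest start site, that of MITF, the master regulator of melanocytes. Its percentiles were 98.2, 98.7 and 98.1 in vehicle replicates 1, 2 and 3 and its folds 3.39, 3.41 and 3.56, and the nearest OA peak was 5056 bp away. The next in rank with a unique sequence lay 228312 bp downstream of the start of LMX1A, a homeobox factor of dopaminergic neurons, at percentiles 94.1, 97.9 and 96.8 and folds of 2.83, 2.88 and 3.13. A region in an intron of TTN, which encodes the giant muscle protein titin, followed with percentiles 94.0, 99.5 and 98.7. All 3 were high in every vehicle library, and none overlapped an H3K4me3 peak.

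Other top-ranked regions lay 66282 bp upstream of MVB12B, an ESCRT-I subunit, in an intron of PROX1, a homeobox factor of lymphatic endothelium, and in an intron of the potassium channel gene KCND2, where the nearest start site was that of TSPAN12. The lowest of the 3 percentiles was 90.7, 90.5 and 89.3 at these regions. The other 4 of the 10 strongest had few unique words or lay far from any gene. The regions nearest OR4F5 and PPIAL4H had 0% unique 31-base words and that nearest RPIA had 6.38%, and the region nearest ZPLD1 lay 961588 bp from its start site. Of the 20 strongest regions, 5 had fewer than 50% unique words, 15 were intergenic or in long noncoding RNA genes, 13 lay farther than 50 kb from a start site, and 0 overlapped an H3K4me3 peak. In repeated sequence a read cannot be assigned to one copy, so the position of those calls is uncertain. Over all vehicle-only regions 10.8% had fewer than 50% unique words, beside 22.6% of regions called in all 6 libraries and 10.5% of all regions in at least 2 libraries.

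At the other end, the 5 weakest regions were near the bottom of 1 vehicle library and higher in at least one other. The region in an intron of VLDLR, a lipoprotein and reelin receptor, was at the 29.1, 0.0168 and 50.1 percentile in vehicle replicates 1, 2 and 3. The region in an intron of the ephrin receptor gene EPHA6 was at 0.0266, 55.2 and 16.8. The regions nearest PGBD5, POFUT2 and CHST9 had lowest percentiles of 0.0588, 0.197 and 0.329 and highest of 59.7, 62.9 and 72.9.

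Just outside the rule stood regions called in all 3 vehicle libraries and in exactly 1 OA library. The 5 strongest of these were 2 regions of chromosome 13 far from TUBA3C, 2 of chromosome 1 near PPIAL4E and 1 in an intron of ZFPM2, with lowest vehicle percentiles of 98.4, 98.1, 97.8, 97.4 and 97.4. Their single OA peak was in OA replicate 1 or 2 and had a percentile of 99.2, 99.6, 95.3, 90.7 and 85.9 in its library. All but the ZFPM2 region had at most 6.38% unique words.

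By position, vehicle-only regions were mostly far from start sites. The median distance to the nearest start site of a protein-coding transcript (GENCODE 44) was 49703 bp, beside 60128 bp for all regions in at least 2 libraries and 35440 bp for regions called in all 6. The region covered a start site at 21 of the 832, lay within 1 kb of one at 53, within 3 kb at 83 and within 50 kb at 417. Intergenic sequence held 373 regions (44.8%), introns 229 (27.5%), long noncoding RNA genes 132 (15.9%), promoters within 3 kb of a start site 83 (9.98%) and exons 15 (1.80%). The same shares over all regions in at least 2 libraries were 42.9%, 31.7%, 15.1%, 8.56% and 1.73%. Among regions of all 3 vehicle libraries, the share within 3 kb of a start site was 12.5% with 1 OA call, 16.5% with 2 and 17.4% with 3.

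**Figure D2:**
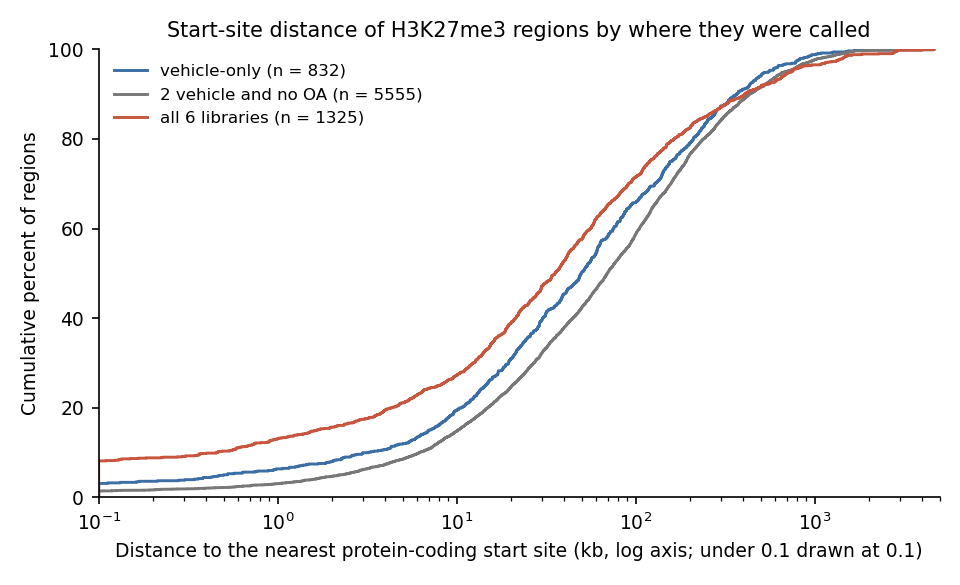
Cumulative percent of regions (y axis) by distance to the nearest protein-coding start site (x axis, kb, log scale) for vehicle-only regions, regions called in 2 vehicle and no OA library, and regions called in all 6 libraries. The vehicle-only curve lies between the others over most distances, with medians of 49703 bp for vehicle-only, 69237 bp for 2 vehicle and no OA, and 35440 bp for all 6.

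The H3K4me3 state of the nearest gene, which the rule did not use, was read within 1 kb of any of its start sites. Such a site need not be the one nearest the region. An H3K4me3 peak was found there in all 6 vehicle and OA libraries for 261 vehicle-only regions (31.4%) and in none for 421 (50.6%). Over all regions in at least 2 libraries the shares were 31.1% and 50.1%. CpG island-like sequence, taken as an observed to expected CpG ratio above 0.6 and GC above 50% in the middle 500 bp, was found at 25 vehicle-only regions (3.00%), beside 1.96% of all regions in at least 2 libraries and 5.21% of regions called in all 6.

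The 83 promoter regions lay at 83 different genes. The strongest were near OR8S1, an olfactory receptor gene (percentiles 99.1, 95.5 and 86.7), and in an intron of IKZF3, the lymphoid transcription factor Aiolos (98.0, 85.8 and 99.6). THY1, encoding the surface protein CD90, had a region 168 bp from its start site at percentiles 76.7, 80.0 and 76.0 and with folds of 4.02, 4.11 and 4.11. The values were close to each other in the 3 vehicle libraries, and the nearest OA peak was 31381 bp away.

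The next promoter regions in rank were those of PDYN, which encodes the opioid precursor prodynorphin (75.1, 94.1 and 87.3), PPIAL4A, a copy of the cyclophilin A gene (92.8, 70.6 and 98.4), and FCRL1, a B-cell receptor-like protein whose start site the region covered (97.1, 67.6 and 95). The PPIAL4A region had 6.38% unique words. AKAP12, a scaffold of protein kinase A, had a region 888 bp into the gene (64.9, 95.7 and 84.8), 730 bp from an OA peak. UTS2, the peptide urotensin 2, COLEC12, a scavenger receptor, and PAX6, a homeobox factor of the eye and forebrain, closed the 10 strongest with lowest percentiles of 63.3, 62.6 and 60.4. Of these 10 regions, AKAP12 was the only one with an H3K4me3 peak, in OA replicate 3.

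Groups of genes were taken from lists of symbols and are given as counts beside the same share over all regions in at least 2 libraries, with no test. Developmental transcription factors were the nearest genes of 55 vehicle-only regions (6.61%, beside 5.5%), and 9 of these regions were at promoters, those of EBF2, HOXB2, NEUROG3, PAX6, POU4F1, RAX, SALL2, SOX14 and TFAP2B. Among promoter regions that is 10.8%, beside 6.19% of all promoter regions. The region at NEUROG3, which specifies endocrine cells of the pancreas, lay 162 bp upstream of its start site, had percentiles of 96.4, 35.9 and 61.3, and was 728 bp from an OA peak. TFAP2B, a factor of neural crest and kidney, had one of the 3 longest regions, 3134 bp over its start site. That whole length was called in vehicle replicate 2, while replicates 1 and 3 called 504 and 200 bp of it. Vehicle replicate 2 likewise called 2752 bp of the longest region, 3161 bp far upstream of CDH4, and all 3010 bp of the region in CAMTA1, where 10.6% of words were unique.

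WNT ligands, receptors and modulators were nearest to 10 regions (1.2%, beside 0.643%). WNT16, a WNT ligand, had a region in a coding exon 2597 bp into the gene with percentiles of 88.2, 92.2 and 58.2. LGR6, a receptor for R-spondins found on epithelial stem cells and also on the list of basal mammary markers, had a region in an intron 1065 bp from a start site at 15.4, 77.0 and 72.8, with folds of 2.22, 2.2 and 2.34. It was low in vehicle replicate 1 and high in the other two, and an OA H3K27me3 peak lay 1671 bp away. No H3K4me3 peak overlapped either region.

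Growth factors and receptor kinases were nearest to 13 regions (1.56%, beside 1.23%) and the TGF-beta and BMP family to 1 (0.120%, beside 0.404%), the promoter of the type I receptor gene ACVR1C. Ion channels had 23 regions (2.76%, beside 3.56%), with 1 at a promoter, where the region covered the start site of the potassium channel gene KCNA2. Axon guidance and synaptic adhesion genes had 14 (1.68%, beside 2.78%) and neurotransmitter receptors 6 (0.721%, beside 1.35%), among them the promoter of the serotonin receptor gene HTR3A at percentiles of 60.6, 34 and 82.8.

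Olfactory receptor genes, which lie in silent clusters, were nearest to 16 regions (1.92%, beside 1.85%), with promoter regions at OR8S1, OR52A1, OR10G3 and OR4F17. Cadherins had 12 (1.44%, beside 1.31%), solute carriers 14 (1.68%, beside 1.77%), zinc finger genes 10 (1.2%, beside 0.968%), matrix genes, integrins and metalloproteases 12 (1.44%, beside 1.38%) and cytokines, chemokines and innate receptors 6 (0.721%, beside 0.760%). The matrix gene FBN3, a fibrillin, and the interferon gene IFNA4 had a region over a start site, and at IFNA4, a member of a family of near-identical genes, 14.9% of words were unique. Keratins were nearest to 4 regions (0.481%, beside 0.294%), the epidermal differentiation complex to 1 (0.120%, beside 0.165%) and the luminal markers to 1 (0.120%, beside 0.0950%), and the regulators and targets of epithelial-mesenchymal transition to 0, beside 23 of all regions in at least 2 libraries.

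Vehicle-only regions were spread over the genome. Chromosome 1 held 87, chromosome 7 69 and chromosome 8 59. As a share of the regions in at least 2 libraries, they were 4.25% on chromosome 20 (37 regions), 3.25% on chromosome 17 (33) and 1.55% on chromosome 4 (13), beside 2.55% overall. The X chromosome had 22, or 1.91% of its regions in at least 2 libraries, yet 22.7% of its 97 regions called in all 3 vehicle libraries, beside 14% overall. These differences were not tested, because regions of one chromosome share their libraries.

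**Figure D3:**
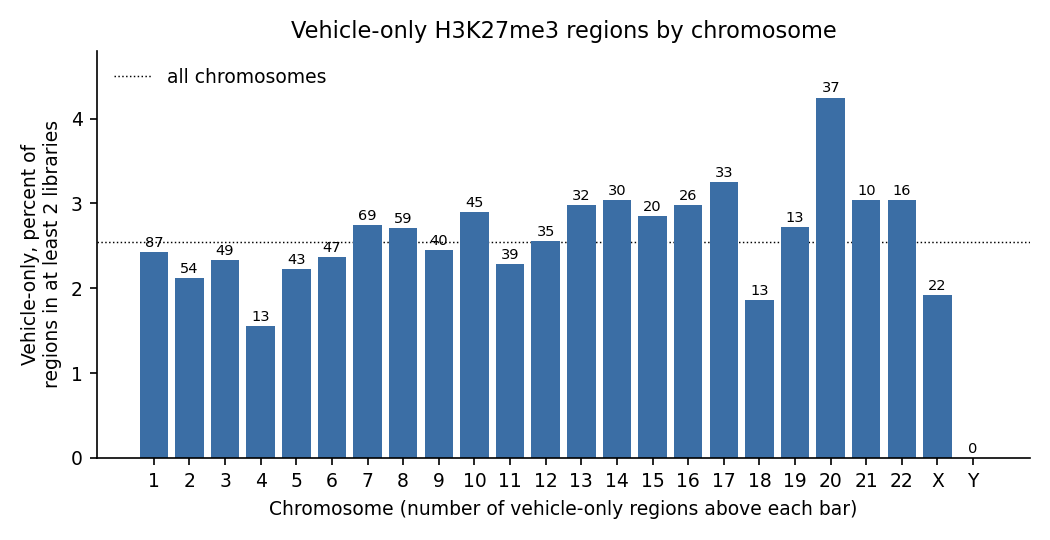
Vehicle-only H3K27me3 regions as a percent of the merged regions in at least 2 libraries on each chromosome, with the number of vehicle-only regions above each bar and the genome-wide share of 2.55% as a dotted line. Chromosome 20 stands highest at 4.25% and chromosome 4 lowest of the autosomes at 1.55%.

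Most vehicle-only regions stood alone along their chromosome. When regions with gaps of at most 100 kb were joined into runs, 641 of the 832 were single, and the other 191 fell into 86 runs, 71 of them pairs, 12 of 3 regions, 2 of 4 and 1 of 5. Of the neighbours that vehicle-only regions had within 100 kb among all regions in at least 2 libraries, 3.41% were vehicle-only too, beside 2.55% of all regions. For regions called in all 6 libraries, the same figures were 10.3% and 4.06%, and their longest run had 20 regions.

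The run of 5 covered 134.1 kb of chromosome 3 (70068973 to 70203080), downstream of MITF and reaching an intron of MDFIC2. It began with the strongest vehicle-only region of all and the region in rank 22, whose percentiles were 86.9, 99.8 and 80.8, and ended with 3 weaker regions in ranks 687, 517 and 638. The stretch held 11 regions of at least 2 libraries, of which 5 had an OA call, and 0 of those 5 were called in all 3 vehicle libraries. All 5 vehicle-only regions consisted of unique sequence.

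One run of 4 crossed the introns of SKAP1, a T-cell adaptor gene, over 166.5 kb of chromosome 17 (48193408 to 48359885). Its strongest region had percentiles of 75.5, 99.6 and 95.7, and its weakest had 2.24, 99.5 and 99.4, so that vehicle replicate 1 was the low one at both. Another began with 2 regions in introns of SLC27A6, a fatty acid transporter gene, and went on with 2 intergenic regions upstream of ISOC1 on chromosome 5 (128977407 to 129074156), with lowest percentiles of 21.1, 80.9, 15.3 and 53.0 along the run. Runs of 3 lay between WNT4 and ZBTB40 and beside PPIAL4A on chromosome 1. The unique words at the latter fell to 6.38%. In the WNT4 run the lowest percentiles were 39.1, 17.2 and 24.3.

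By nearest gene, 690 genes were named, 581 of them once, 84 for 2 regions and 25 for at least 3. CSMD3 had 6 vehicle-only regions, but also 244 regions in at least 2 libraries, and KCNV1 had 5 of 161, both on chromosome 8. Smaller totals stood behind the 4 regions of CHD1 (of 33), KIF26B (of 54) and PDE4D (of 62). The HOXB cluster on chromosome 17 held vehicle-only regions nearest HOXB2, HOXB5 and HOXB13, looked at after their values were seen, with lowest percentiles of 45.2, 69.3 and 46.6, interleaved with regions that had OA calls. The region nearest HOXB1, for instance, was called in all 3 vehicle libraries at percentiles of 88.6, 78.3 and 73.4 and in 2 OA libraries.

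H3K4me3 was a readout that the rule did not use, since its libraries took no part in choosing the regions. Whether both marks were read in the same cultures is not given in the sources used here. An H3K4me3 peak overlapped 8, 3 and 2 of the 832 vehicle-only regions in the vehicle libraries, in the order of replicates 1 to 3. In the OA libraries it was 14, 12 and 18. Every OA library had more than every vehicle library. The means were 4.33 ± 3.21 and 14.7 ± 3.06 regions (SD, n = 3 each), a difference of 10.3 (p = 0.1 by a two-sided exact permutation test, which cannot go lower with 3 libraries against 3). In untreated cells H3K4me3 was called at 2 and 0 of the regions, and IgG at 0 and 0. The length of H3K4me3 peak inside the regions was 3.883, 1.769 and 0.398 kb in vehicle. It was 6.692, 7.253 and 12.757 kb in OA, also without overlap between the groups (difference 6.88 kb, p = 0.1 by the same exact test).

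The calls concentrated at start sites. Among the 83 promoter regions, 7, 3 and 1 had an H3K4me3 peak in vehicle, as against 12, 11 and 16 with OA, a difference of 9.33 (two-sided exact permutation test, p = 0.1). The vehicle H3K4me3 libraries had 16086 to 19953 peaks genome-wide and the OA libraries 17975 to 21033. The top of each range belonged to vehicle replicate 1 and OA replicate 3, which also had the most calls at vehicle-only regions in their groups. With the 16086 strongest peaks of every library, the difference over all vehicle-only regions was 9 (exact permutation p = 0.1).

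**Figure D4:**
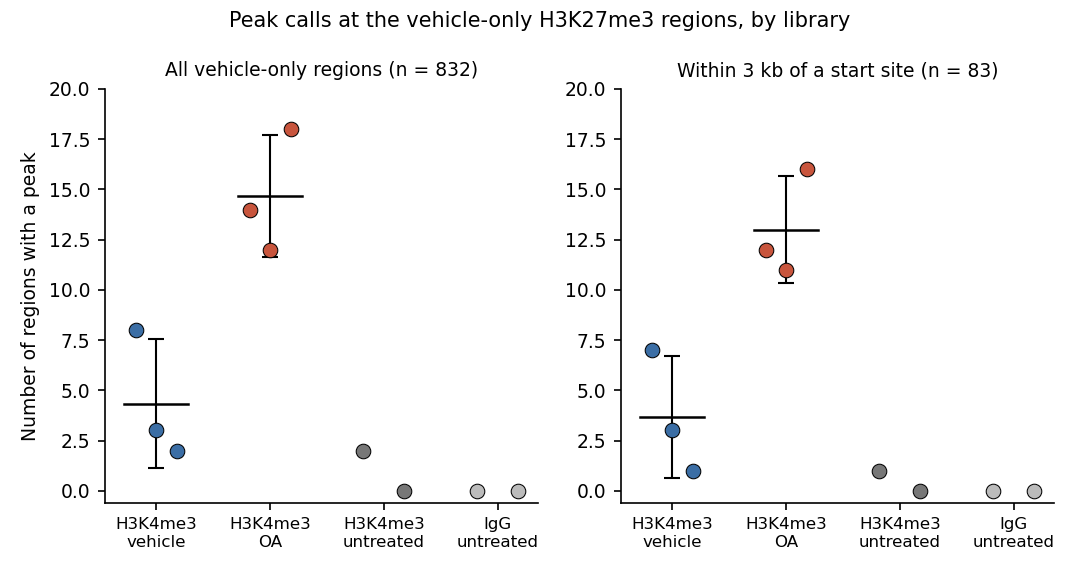
Number of vehicle-only H3K27me3 regions with an H3K4me3 or IgG peak (y axis) in each library (points), for all 832 regions and for the 83 within 3 kb of a start site, with the mean and SD of the 3 vehicle and 3 OA libraries as bars. The OA libraries sit at 12 to 18 and the vehicle libraries at 2 to 8 in the first panel, and at 11 to 16 and 1 to 7 in the second.

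Other H3K27me3 regions also had more H3K4me3 calls in OA. At the 1739 regions called in all 3 vehicle libraries and 1 OA library, 16, 11 and 14 had an H3K4me3 peak in vehicle against 33, 41 and 74 in OA. Of 782 promoter regions called in all 3 vehicle libraries and any OA library, 21, 10 and 6 had one in vehicle. In OA it was 63, 72 and 161. At the 31524 other regions in at least 2 libraries that had no IgG peak, the numbers were 140, 83 and 93 (vehicle) against 232, 221 and 465 (OA). The vehicle-only count, divided by the count at these separate regions, came to 5.71%, 3.61% and 2.15% for vehicle against 6.03%, 5.43% and 3.87% for OA, and these ranges overlapped. Its log2 differed by 0.50 between the means (two-sided exact permutation test, p = 0.3), a comparison chosen after the counts had been seen. Adjusted over these 4 comparisons by the Benjamini-Hochberg method, p was 0.133 for each of the first 3 and 0.3 for the last.

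Region by region, an H3K4me3 peak was present in at least 2 more OA than vehicle libraries at 10 vehicle-only regions (1.2%), where the background over all regions in at least 2 libraries was 0.607%. Among regions of all 3 vehicle libraries the share was higher where OA calls were present, at 1.84% with 1 OA call, 1.53% with 2 and 1.66% with 3. At promoters it was 9 of 83 (10.8%), beside a background of 5.87%. Among promoter regions of all 3 vehicle libraries it was 28 of 217 with 1 OA call, 28 of 334 with 2 and 17 of 231 with 3. The reverse, at least 2 more vehicle than OA libraries, occurred at 0 vehicle-only regions, with a background of 0.0398%. Any H3K4me3 peak in the 6 libraries was found at 22 vehicle-only regions (2.64%), beside a background of 2.76% that includes regions with an IgG peak. It was found at 617 of the 31524 other regions without an IgG peak. Among regions of all 3 vehicle libraries the share was 4.95% with 1 OA call, 4.83% with 2 and 11.2% with 3. These shares too include regions with an IgG peak. IgG was called at 65 and 67 of the 1325 regions with 3 OA calls, and at 0 and 0 of the vehicle-only regions, so the 11.2% is not comparable with the 2.64%. Read from the H3K4me3 side, 18734 merged H3K4me3 regions were found in 2 or more libraries, of which 345 (1.84%) were called in the 3 OA libraries alone and 15 (0.0801%) in the opposite pattern. Vehicle-only H3K27me3 regions overlapped 14 of the 18734, among them 4 of the 345 and 0 of the 15.

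The 22 regions with H3K4me3 were rich in CpG. Their median GC content was 62.0% and their median observed to expected CpG ratio 0.664, against 43.9% and 0.165 in the 810 without, and 13 of the 22 were CpG island-like against 12 of the 810. Within 3 kb of a start site lay 16 of the 22. Their median strength was the 21.7th percentile, against 25.7 in the rest. Among the promoter regions, the 67 without an H3K4me3 peak had a median GC content of 47% and 7 of them were CpG island-like.

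The 4 regions with H3K4me3 in OA alone are those whose sequences are printed above. CAMK4 encodes a calcium- and calmodulin-dependent kinase of T cells and neurons. Its start site lay inside the region on chromosome 5 (111224302 to 111225374), whose H3K27me3 folds were 2.86, 2.98 and 2.99 in vehicle, and an OA H3K27me3 peak lay 562 bp away. The H3K4me3 folds there were 6.88, 6.12 and 8.40 in OA replicates 1, 2 and 3. These were modest peaks of their libraries, at percentiles 25.7, 12.6 and 30.8.

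BATF3, an AP-1 family factor needed for a class of dendritic cells, had a region from 86 bp downstream of its start site (chromosome 1, 212698525 to 212699754) with H3K27me3 folds of 2.29, 2.45 and 2.38. Its H3K4me3 folds were 6.22, 7.49 and 10.7 in OA, at percentiles 49.9, 31.9 and 90.1. The peak was 1160, 1026 and 1645 bp long, the only one of the 4 to exceed 1 kb in every OA library. An OA H3K27me3 peak lay 996 bp from the region.

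GIPR, the receptor of the gut hormone GIP, had a region 423 bp downstream of its start site (chromosome 19, 45668680 to 45669763) with H3K27me3 folds of 3.62, 3.38 and 3.93. The H3K4me3 folds were 6.51, 9.72 and 8.64. Here the nearest OA H3K27me3 peak was 67066 bp away, farther than at the other 3. PPP2R2C, a regulatory subunit of protein phosphatase 2A, had a short region of 372 bp (chromosome 4, 6563016 to 6563387), 213 bp downstream of the start site, with H3K27me3 folds of 2.84, 3.03 and 3.49. Its H3K4me3 folds were 6.85, 10.3 and 11.5, and the nearest OA H3K27me3 peak was 3076 bp away. Within 1 kb of any PPP2R2C start site an H3K4me3 peak was found in 4 of the 6 libraries, so also in vehicle. For CAMK4, BATF3 and GIPR it was found in 3.

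A second set had H3K4me3 in 2 OA libraries and no vehicle library. ACVR1C, the activin-type receptor also called ALK7, had folds of 5.90 and 10.7 in OA replicates 1 and 3, and NFATC2, a calcineurin-regulated transcription factor, 4.44 and 7.84 in the same libraries. The third, in OA replicates 1 and 3 at folds of 7.63 and 6.97, lay 30663 bp downstream of the start of OSBPL7, an oxysterol-binding protein relative, and was not at a promoter. OA replicate 2 had no peak at any of the 3. Within 1 kb of any ACVR1C start site, 4 of the 6 libraries had an H3K4me3 peak, so vehicle was among them.

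At 3 further promoters 1 vehicle library also had a peak, vehicle replicate 1 in each case. EGLN3, the hypoxia-inducible factor prolyl hydroxylase PHD3, had a fold of 8.83 there and 5.13, 3.67 and 11.1 in OA, so the vehicle value lay within the OA range. FGF14, an intracellular regulator of sodium channels, had 5.46 in vehicle and 4.89, 6.91 and 9.17 in OA. SOWAHB had 7.07 in vehicle and 6.33, 6.94 and 12 in OA, and was also called in an untreated library at 4.71. Folds are not scaled between libraries and are given as the caller wrote them.

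**Figure D5:**
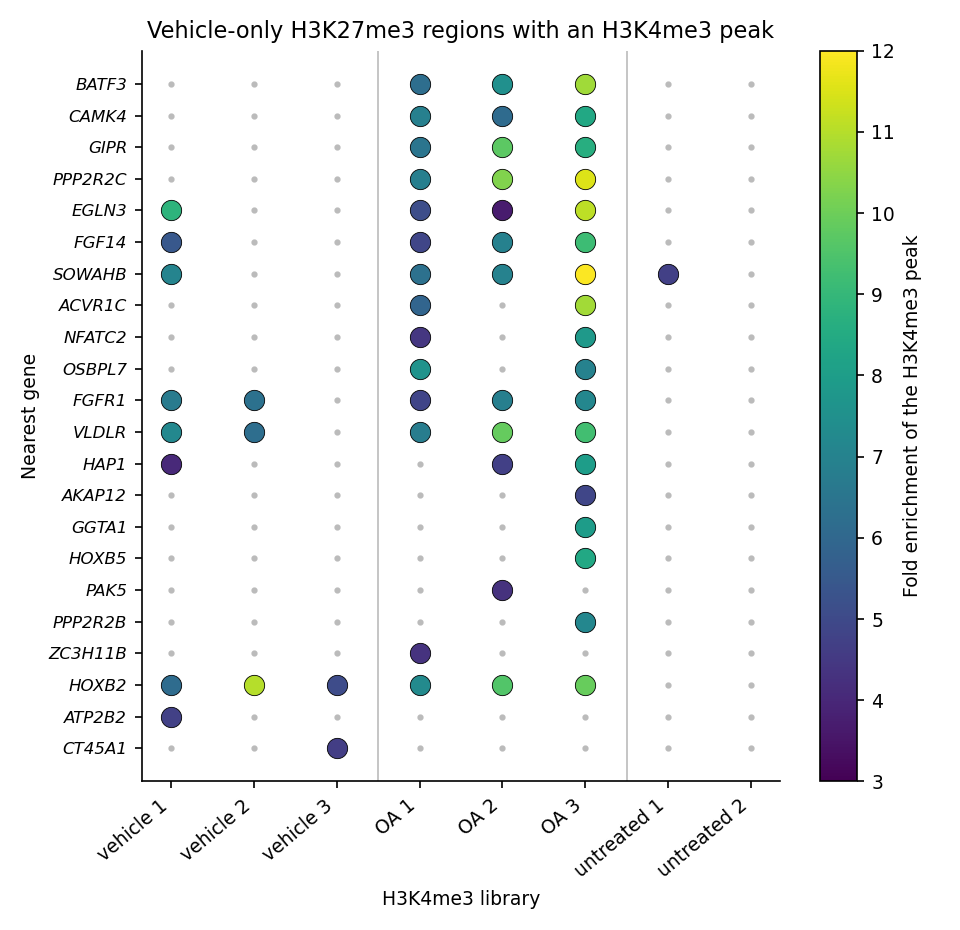
H3K4me3 peaks at the 22 vehicle-only H3K27me3 regions that had one in any vehicle or OA library, by nearest gene (rows) and library (columns), with the fold enrichment of the peak as colour and a grey point where no peak was listed. The top 4 rows are called in the 3 OA libraries alone, and HOXB2 in all 6.

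The remaining regions with H3K4me3 did not separate the treatments in this way. HOXB2, a homeobox gene of hindbrain and limb patterning, carried H3K4me3 in all 6 libraries, with folds of 6.13, 11 and 5.06 in vehicle and 7.26, 9.56 and 9.89 in OA, beside its vehicle-only H3K27me3 call in the same promoter. VLDLR and the growth factor receptor gene FGFR1 were called in vehicle replicates 1 and 2 and all 3 OA libraries, at VLDLR with folds of 7.2 and 6.23 in vehicle and 6.76, 9.89 and 9.28 in OA. HAP1, which encodes a huntingtin partner, was called in 1 vehicle and 2 OA libraries. AKAP12, GGTA1, HOXB5, PAK5, PPP2R2B and ZC3H11B had a peak in a single OA library, 4 of these in OA replicate 3, and ATP2B2 and CT45A1 in a single vehicle library. These single-library regions were named after their values were seen.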

How the data were processed

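H3K4me3 narrow peaks came from MACS2 2.2.7.1, as the methods say, and the build per the labels was hg38. For H3K27me3 the methods name SICER2, but the deposited lists have the broadPeak layout of MACS2. Each library had a peak list of its own. The aligner, the treatment of duplicate reads and the control used in calling are not given in the sources used here. The fold enrichment deposited with each peak is a ratio to the caller's local background, and its p- and q-value are given by the authors as −log10 values. None of these is scaled between libraries, and whether a peak is listed depends on depth, which is unknown. The highest listed q was close to 0.1 for H3K27me3 and to 0.01 for H3K4me3 and IgG.

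Peaks on chromosomes 1 to 22, X and Y were merged at 1 bp overlap. Since the presence of H3K27me3 peaks chose the regions, only H3K4me3 calls were tested, by two-sided exact permutation over 3 vehicle and 3 OA libraries from separate cultures. The authors' test of read counts with DiffBind 3.9 was not rerun on peak lists. Start sites were those of protein-coding transcripts of GENCODE 44, matching in build. Base composition was read from the middle 500 bp, and uniqueness from 31-base words of hg38. The regions and gene lists were chosen with earlier results of these data known. Named were the 10 strongest regions overall and at promoters, the 5 weakest, the 5 just outside the rule, up to 3 promoter regions of each gene list, up to 8 with the largest H3K4me3 difference, the 5 largest runs and the 3 longest regions. Other genes, such as those with several regions, the HOXB cluster and list members beyond the 3 strongest, were named after their values were seen. Merging was tested on simulated lists of 5000 regions, where 200 of 200 planted vehicle-only regions were recovered. The simulated regions lay well apart and had no missed calls, so this checked the code and not how stable the choice of regions is. The scripts ran under Python 3.11.15 with numpy 2.4.6 and scipy 1.17.1, and figures were drawn with matplotlib 3.10.9.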

Additional observations from a re-analysis of the deposited data

How the results depend on the processing

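The number of vehicle-only regions depended on the processing. It was 832 with every listed peak, 194 with peaks of q of at most 0.01 (33 of them among the 832), 6 with q of at most 1e-05 (0 among the 832), and 195 with the 9091 strongest peaks of each H3K27me3 library (72 among the 832, or 8.65% of them). Without regions that had an OA peak within 5 kb it was 437, and with 2 vehicle libraries sufficing it was 6387. Joining peaks within 5 kb gave 790, and removing IgG regions left 832. Leaving out 1 H3K27me3 library, which loosens the rule, gave 969 (OA replicate 3) to 4371 (vehicle replicate 1), with 1393 and 2280 without vehicle replicates 2 and 3 and 1639 and 1592 without OA replicates 1 and 2. In all 66 alternatives that gave a count or length, H3K4me3 was higher in OA, with every OA library above every vehicle library. The ratio to other regions, given last, is not among the 66. The exact permutation p went from 0.1 to 0.25. The 66 are not independent of each other. Settings that left out an H3K4me3 library, used a replicate block or removed IgG regions reused the counts of the 832 regions. They could therefore not break the separation. At an H3K27me3 q of at most 1e-05 no region had an H3K4me3 peak. The size of the differences moved by over 1.5 times. The differences in regions, promoter regions and kb were 5.67, 4.33 and 3.04 with equal H3K27me3 peak numbers, 5.33, 4.33 and 4.53 without OA peaks within 5 kb, and 31, 26.3 and 16.4 with 2 vehicle libraries sufficing. With 1 library left out they went from 8.67, 7.83 and 4.96 (without H3K4me3 OA replicate 3) to 36.3, 33.7 and 17.6 (without H3K27me3 OA replicate 1). They were 18, 15.7 and 10.4 without H3K27me3 vehicle replicate 1, 16, 14 and 9.42 without vehicle replicate 3, and 19.3, 17.3 and 12 without OA replicate 2. Same-numbered H3K27me3 vehicle and OA libraries deviated together only weakly (correlations 0.0926, 0.0407 and 0.0359) and H3K4me3 libraries not in a common direction (−0.0279, 0.139 and −0.225), so the numbers are not shown to pair. With a replicate block the difference was 10.3 regions, 9.33 promoter regions and 6.88 kb (exact paired permutation, p = 0.25, the smallest that 3 pairs can give). Set against the count at other H3K27me3 regions, added after seeing the data, the log2 difference was 0.50 (two-sided exact permutation test, p = 0.3). There the vehicle and OA libraries overlapped.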
